A study of Homo sapiens with 6 samples.

Results

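The RB family, the activator E2Fs and a group of CDK inhibitors were followed in SW480 cells, a human colorectal adenocarcinoma line, after knockdown of the transcription factor ZEB1. Members were the 10 genes named for these roles, RB1, RBL1, RBL2, E2F1, E2F2, E2F3, CDKN1B, CDKN1C, CDKN2C and CDKN2D, and each matched 1 row by its gene name among the 32029 genes listed in the count tables. RNA-seq was performed on 6 cultures of this 1 line, of which 3 were transfected with a control siRNA (siControl, siNC in the sample names, genotype WT) and 3 with siRNA against ZEB1 (siZEB1, genotype ZEB1 knockdown), 48 h before RNA extraction. The number and the sequence of the siRNAs behind these samples are not given in the sources used here. RNA was extracted from whole cultures, so a change in the share of cells in a phase of the cell cycle and a change in RNA per cell cannot be told apart.

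RB1, RBL1 and RBL2 encode the pocket proteins RB, p107 and p130, which bind E2F transcription factors and repress their target genes in G1. Cyclin D with CDK4 or CDK6, and then cyclin E with CDK2, phosphorylate the pocket proteins, which frees E2F1, E2F2 and E2F3 to activate genes of DNA synthesis. The CIP/KIP inhibitors p27 (CDKN1B) and p57 (CDKN1C) bind cyclin-CDK complexes, whereas the INK4 inhibitors p18 (CDKN2C) and p19 (CDKN2D) bind CDK4 and CDK6 themselves. RB1 is a classic tumor suppressor gene, and low p27 is common in epithelial tumors, in which this circuit controls entry into S phase.

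The promoters of several members carry E2F motifs of their own, so their sequences are shown before the values. RefSeq windows on GRCh38.p14, each of 300 bases from 250 before to 50 after an annotated gene start, were given for 9 of the 10 members, with 13 windows in all. The member without a window is CDKN1C. Both strands were searched for the E2F motifs TTTCCCGC, TTTGGCGC, TTTGCCGC and TTTCGCGC and for the E-box CAGGTG, the letters that ZEB1 is known to bind. The windows of E2F1, RBL1, E2F2 and CDKN1B are printed 5′ to 3′ on the strand of the gene, with matches in capitals. They show the double motif of E2F1 and RBL1, the single one of E2F2, and a window without a match. Whether a match goes with the direction of change was not tested, and CDKN1C, which fell most, has no window. Of the members that hold an E2F match, E2F1, RBL1 and E2F3 were called as higher and E2F2 was not called. The E2F3 call did not hold in every fit.
E2F1, chr20:33686336-33686635, minus strand: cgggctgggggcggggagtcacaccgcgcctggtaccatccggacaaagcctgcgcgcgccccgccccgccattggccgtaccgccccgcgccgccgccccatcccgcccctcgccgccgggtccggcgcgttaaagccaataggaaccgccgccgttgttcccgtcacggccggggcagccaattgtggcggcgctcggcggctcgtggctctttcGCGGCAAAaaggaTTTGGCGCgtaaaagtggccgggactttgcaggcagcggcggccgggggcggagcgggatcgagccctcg
RBL1, chr20:37095948-37096247, minus strand: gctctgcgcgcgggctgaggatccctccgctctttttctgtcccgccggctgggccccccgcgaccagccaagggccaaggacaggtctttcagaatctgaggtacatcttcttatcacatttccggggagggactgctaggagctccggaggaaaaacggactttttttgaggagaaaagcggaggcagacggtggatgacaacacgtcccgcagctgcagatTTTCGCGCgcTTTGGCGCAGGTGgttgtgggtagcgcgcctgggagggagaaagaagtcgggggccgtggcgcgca
E2F2, chr1:23531184-23531483, minus strand: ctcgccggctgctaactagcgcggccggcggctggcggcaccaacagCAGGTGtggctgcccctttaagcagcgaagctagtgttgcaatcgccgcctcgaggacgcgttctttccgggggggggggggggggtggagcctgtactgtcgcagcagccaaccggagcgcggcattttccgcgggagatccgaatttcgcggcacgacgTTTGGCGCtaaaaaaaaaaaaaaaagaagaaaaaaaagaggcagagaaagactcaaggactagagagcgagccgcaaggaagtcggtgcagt
CDKN1B, chr12:12717118-12717417, plus strand: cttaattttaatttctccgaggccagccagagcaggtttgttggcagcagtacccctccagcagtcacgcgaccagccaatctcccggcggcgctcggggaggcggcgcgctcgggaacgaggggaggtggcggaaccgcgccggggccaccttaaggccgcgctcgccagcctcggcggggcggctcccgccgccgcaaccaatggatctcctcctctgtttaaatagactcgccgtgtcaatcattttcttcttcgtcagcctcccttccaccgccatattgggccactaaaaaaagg

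An E2F motif was present in 4 of the 13 windows, 1 each of E2F1, RBL1, E2F2 and E2F3, whereas 3.32% of 35097 promoter windows of all genes held one. E2F1 had its matches starting 33 and 20 bases before the gene start, and RBL1 had them 26 and 16 bases before it. E2F2 had 1 match, 42 bases before its start, and E2F3 had 1 match, 53 bases before the start of the window at chr6:20401629-20401928. The E-box was present in 2 of the 13 windows, against 20.6% of all windows, starting 203 bases before the start of E2F2 and 9 bases before that of RBL1, where its first base is the last base of an E2F motif. No match was present in the windows of CDKN1B, CDKN2C, CDKN2D, RBL2 or RB1, and the RB1 window (chr13:48476200-48476499) lies inside the gene as GENCODE 29 places it, from 48303726 to 48599436. The CDKN1B window, both RBL2 windows, the second E2F3 window and all but the first CDKN2C window likewise lie inside the span that GENCODE 29 gives the gene. These matches are letters in a sequence, and binding was not measured here.

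Counts per culture summed to between 19040636 and 22357633. ZEB1 was at 54.2 ± 6.24 CPM in siControl and 7.51 ± 0.843 CPM in siZEB1 (SD, n = 3 each), a log2 ratio of -2.85 (SE 0.11) with an adjusted p-value of 4.85e-12 in edgeR's quasi-likelihood test, so the targeted transcript was lower in each siZEB1 culture. CPM are counts scaled to equal library size by TMM, and the log2 ratio is that of siZEB1 to siControl, given on the axes of the plots as the log2 fold change. The p-values are adjusted over the 14996 genes tested. Of 8 epithelial and colon markers, 7 were tested, of which 3 rose and 1 fell. Over all genes tested, 19.0% were called as higher and 21.2% as lower at an adjusted p-value under 0.05. EPCAM, an epithelial adhesion molecule, was at 54.7 ± 2.29 CPM in siControl and 453.6 ± 14.1 CPM in siZEB1 (log2 ratio 3.05). KRT19 was at 72.3 ± 1.19 and 223 ± 17.1 CPM (1.62), VIL1 at 4.08 ± 0.504 and 20.7 ± 1.49 CPM (2.34), and the intestinal factor CDX2 at 102.5 ± 7.08 and 41.8 ± 2.66 CPM (-1.30). The keratins KRT8 and KRT18 were abundant and not called. Of 13 markers of fibroblasts, endothelium and immune cells, 10 were in the files and 6 of these had at most 10 reads in every culture. Their summed level, most of it COL1A1, was between 16.0 and 17.9 CPM in siControl and between 15.4 and 17.6 CPM in siZEB1, while PDGFRB among them rose from 3.98 ± 0.310 to 5.33 ± 0.222 CPM (log2 ratio 0.42, adjusted p = 0.0281). The part of these marker changes in the results for the members was not tested. CDH17 had at most 5 reads in each culture, below the filter, and KRT20 at most 20. The cultures numbered 3 deviated in opposite directions from their group means, with r = -0.659 across 9030 genes, which are not independent, so values without both are given where they change a call. That fit was added after the data were seen.

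Of the 10 members, all passed the filter on low counts, and 2 fell and 3 rose at an adjusted p-value below 0.05. The CIP/KIP inhibitors CDKN1C and CDKN1B fell by 61.6% and 35.5%, whereas RBL1, E2F1 and E2F3 rose by 30.4%, 21.6% and 15.1%. RB1, RBL2, E2F2, CDKN2C and CDKN2D were not called. Over all genes tested 40.2% were called, 19.0% as higher and 21.2% as lower, so 5 of 10 members is a share near that of all genes. The median log2 ratio of the members was 0.19, and that of all genes tested was -0.0055. The groups did not overlap at 8 members, against 49.5% of all genes tested.

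**Figure D1:**
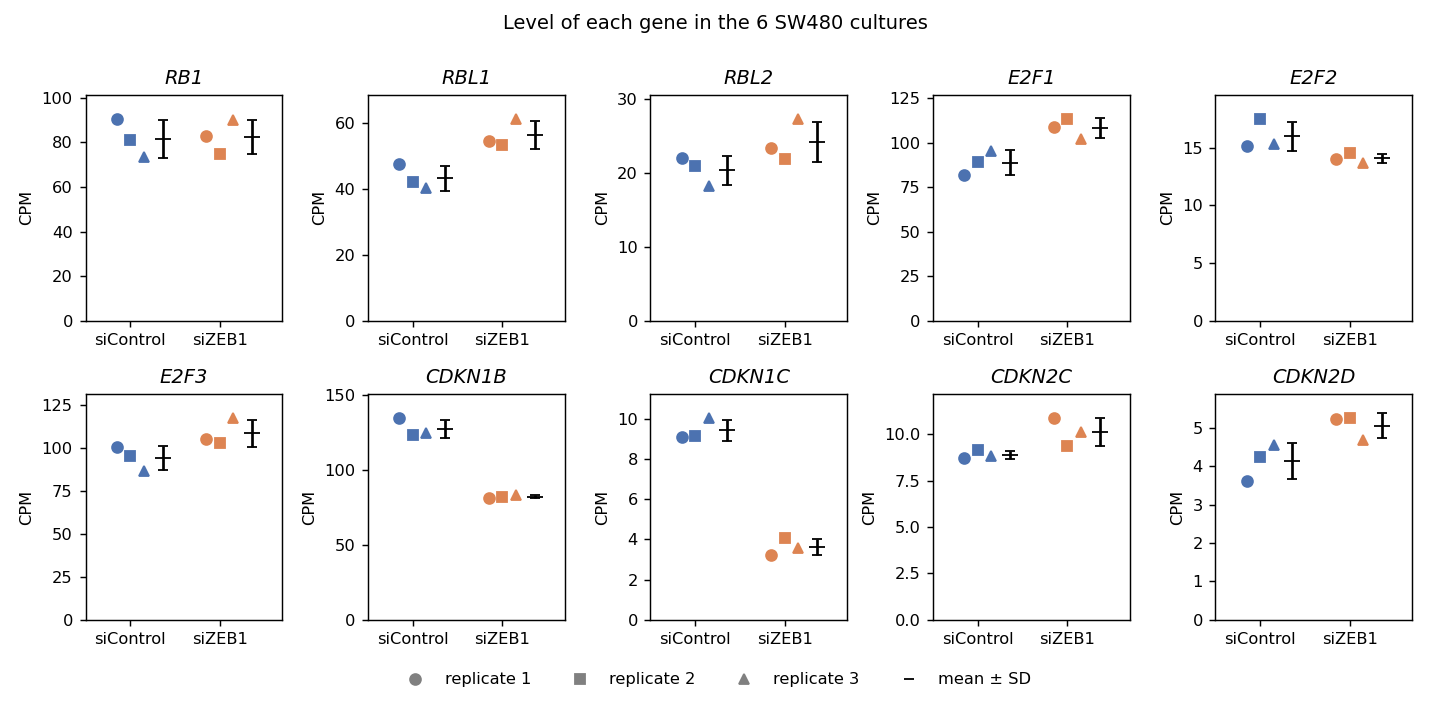
Level of each member in the 6 cultures, in CPM on axes that start at 0, with 1 panel per gene. Points are cultures, with a symbol for each replicate number, and the bars at the right of each group give the mean ± SD (n = 3). CDKN1B and CDKN1C sit lower in all 3 siZEB1 cultures, while the groups of RB1 and RBL2 overlap.

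CDKN1C (chromosome 11 from 2883213 to 2885773) encodes p57, and its siControl cultures held 193, 205 and 193 reads, its siZEB1 cultures 61, 78 and 68. Each siZEB1 culture lay below each siControl culture by more than the spread within either group. The mean level was 9.41 ± 0.519 CPM with siControl and 3.61 ± 0.416 CPM with siZEB1 (SD, n = 3 each), a log2 ratio of -1.38 (SE 0.14, adjusted p = 4.44e-07 in edgeR's test). CDKN1B (chromosome 12 from 12715058 to 12722371), which encodes p27, was at 134, 123 and 125 CPM with siControl and at 81.2, 81.8 and 83.4 CPM with siZEB1. The siZEB1 cultures of CDKN1B were close together and well below the lowest control. The log2 ratio was -0.63 (SE 0.063, adjusted p = 5.53e-07). The summed level of these CIP/KIP genes was 137 ± 5.80 CPM in siControl and 85.8 ± 1.28 CPM in siZEB1, most of which is CDKN1B. When 1 culture at a time was omitted, the log2 ratio lay between -1.47 and -1.30 for CDKN1C and between -0.66 and -0.60 for CDKN1B, and both were called in all 6 fits.

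The INK4 inhibitors had few reads and were not called. CDKN2C, which encodes p18, was at 8.70, 9.15 and 8.82 CPM with siControl and 10.9, 9.36 and 10.1 CPM with siZEB1. The groups did not overlap, yet the gap between the nearest cultures was small. The log2 ratio was 0.19, with a 95% interval from -0.044 to 0.41 (adjusted p = 0.187 in edgeR's test). CDKN2D, which encodes p19, held 77, 95 and 88 reads in siControl and 99, 101 and 90 in siZEB1, the lowest counts of the members beside those of CDKN1C after knockdown. Its log2 ratio was 0.29, with an interval from -0.024 to 0.61 (adjusted p = 0.133).

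Of the remaining genes of both inhibitor families, 1 of 3 was called, a share near the 40.2% of all genes tested. CDKN2A, the INK4 locus that encodes p16 and, in another frame, ARF, rose from 19.3 ± 1.94 to 24.7 ± 0.707 CPM, a log2 ratio of 0.36 (SE 0.090, adjusted p = 0.00443 in edgeR's test). The counts do not separate its reading frames, and exons of CDKN2B-AS1 on the opposite strand overlap 7.88% of its exonic bases. CDKN2B, the neighbouring INK4 gene for p15, was at 8.93 ± 0.428 and 9.92 ± 0.264 CPM and was not called (0.15, adjusted p = 0.278). CDKN1A, the third CIP/KIP gene, which encodes p21, was at 104 ± 5.72 and 95.9 ± 3.61 CPM, with a log2 ratio of -0.11 (adjusted p = 0.193). The ubiquitin ligase that marks p27 for degradation was not called at any of its 4 listed subunits, beside 40.2% of all genes tested. SKP2, the subunit that recognizes p27, was at 103 ± 7.02 and 114 ± 6.75 CPM (0.14, adjusted p = 0.112), and CKS1B, CUL1 and SKP1 had values between 0.059 and 0.13. At an unadjusted p-value, CUL1 alone of these 4 was under 0.05.

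Of the pocket protein genes only RBL1 was called, and the difference between these genes was not tested. RB1 (chromosome 13 from 48303726 to 48599436) was at 90.4, 81.0 and 73.3 CPM with siControl and 82.7, 74.6 and 89.9 CPM with siZEB1. The groups overlapped across nearly their whole range. Its log2 ratio was 0.015, with a 95% interval from -0.16 to 0.19 (adjusted p = 0.906 in edgeR's test). RBL1 (chromosome 20 from 36996349 to 37095995), which encodes p107, was at 47.5, 42.0 and 40.2 CPM with siControl and 54.6, 53.3 and 61.2 CPM with siZEB1. Each siZEB1 culture was above the highest control, and the log2 ratio was 0.38 (SE 0.081, adjusted p = 0.00113). RBL1 was called in all 6 fits with 1 culture left out, with values between 0.32 and 0.45.

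RBL2, which encodes p130, the pocket protein of resting cells, was at 22.0, 20.9 and 18.2 CPM with siControl and 23.4, 21.9 and 27.3 CPM with siZEB1. The second siZEB1 culture lay just under the highest control. Its log2 ratio was 0.25, with an interval from 0.036 to 0.46, and its adjusted p of 0.0588 in edgeR's test missed the threshold. It was called without siControl replicate 1 (adjusted p = 0.0380) and without siZEB1 replicate 2 (adjusted p = 0.0357). Exons on the opposite strand, of AKTIP and AC007342.6, overlap 18.2% of the exonic bases of RBL2, and whether the counting used the strand is not given in the sources used here. In RB1, RBL1, RBL2 and E2F3, siControl replicate 3 was the lowest control and siZEB1 replicate 3 the highest knockdown culture. E2F1 and CDKN2D had the reverse order, with siControl replicate 3 highest and siZEB1 replicate 3 lowest. Without both cultures, the log2 ratio was 0.38 for E2F1 (adjusted p = 1.43e-08) and 0.42 for CDKN2D (adjusted p = 0.0601). It was -0.12 for RB1, 0.27 for RBL1 (adjusted p = 0.000961) and 0.082 for RBL2 (adjusted p = 0.518), so RB1 changed sign, RBL2 lost most of its difference and RBL1 was still called.

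Among the activator E2Fs, E2F1 and E2F3 rose slightly and E2F2 did not. E2F1 (chromosome 20 from 33675683 to 33686404), the best studied activator of S phase genes, was at 81.9, 89.2 and 95.7 CPM with siControl and 109, 113 and 102 CPM with siZEB1. All siZEB1 cultures were above all controls, although the gap between the nearest pair was narrower than the range within either group. The log2 ratio was 0.28 (SE 0.071, adjusted p = 0.00421 in edgeR's test), and E2F1 was called in all 6 fits with 1 culture left out, between 0.23 and 0.34. E2F3 was at 100.3, 95.4 and 86.6 CPM with siControl and 105, 103 and 117 CPM with siZEB1. The log2 ratio was 0.20 (SE 0.073, adjusted p = 0.0347), and the E2F3 call was lost in 4 of those 6 fits. The highest adjusted p-value among these fits was 0.146, without siZEB1 replicate 3, and without replicate 3 of both groups the value was 0.090 (adjusted p = 0.221).

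E2F2 held 322, 391 and 295 reads in siControl and 264, 279 and 262 in siZEB1. In CPM its groups just failed to overlap, at 16.0 ± 1.29 and 14.1 ± 0.416 (SD, n = 3 each). Its log2 ratio was -0.18, with an interval from -0.39 to 0.017 (adjusted p = 0.136 in edgeR's test), and it was called in none of the other fits. Its value was below 0 and those of E2F1 and E2F3 were above it, and the difference between the E2Fs was not tested. The summed level of E2F1, E2F2 and E2F3 was 199 ± 2.67 CPM with siControl and 231 ± 2.47 CPM with siZEB1. E2F1 and E2F3 ran in opposite order across the cultures of each group, so these SDs understate the spread of the single genes. In siControl and siZEB1 the SD was 6.92 and 5.56 CPM for E2F1, and 6.93 and 7.65 CPM for E2F3.

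**Figure D2:**
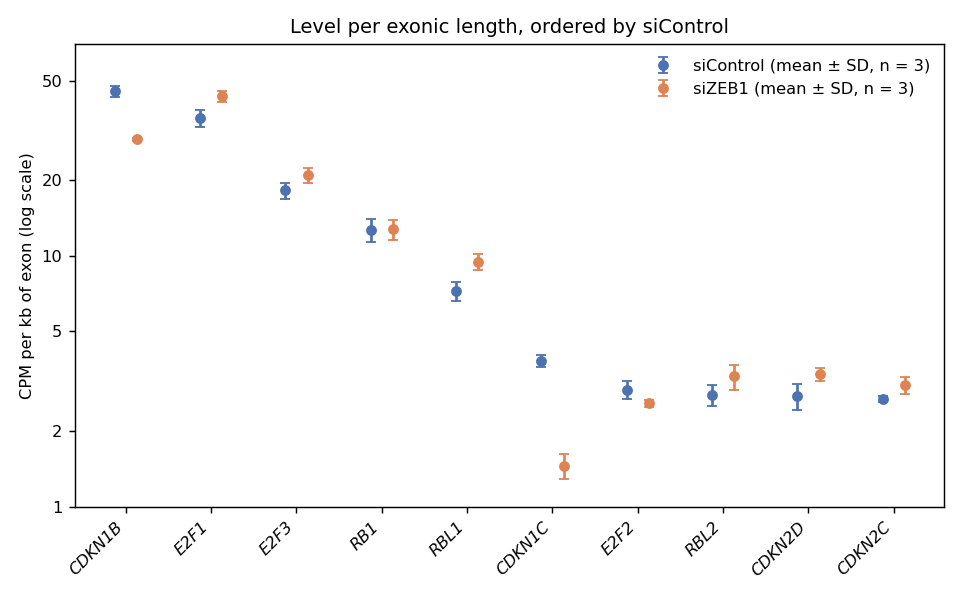
Level of each member per kilobase of exon, in CPM per kb on a log axis, as the mean ± SD of 3 cultures, ordered by the siControl level. CDKN1B is above E2F1 in siControl and below it in siZEB1, and CDKN1C moves from above 4 other members to the lowest place.

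Levels can be set beside each other between genes only per length, so CPM were divided by the exonic bases of each gene in GENCODE 29. In siControl, CDKN1B had the highest level of the members, at 45.3 ± 2.15 CPM per kb (SD, n = 3), followed by E2F1 at 35.5 ± 2.77 CPM per kb. E2F3 at 18.2, RB1 at 12.6, RBL1 at 7.26 and CDKN1C at 3.80 CPM per kb came next, each with all 3 cultures below those of the gene before it. E2F2, RBL2, CDKN2D and CDKN2C, between 2.93 and 2.68 CPM per kb, overlapped with their neighbours in this order. In siZEB1, E2F1 came first, at 43.2 ± 2.22 CPM per kb, and CDKN1B second, at 29.2 ± 0.412 CPM per kb, with no overlap between these genes in either group. CDKN1C became the lowest member, at 1.46 ± 0.168 CPM per kb, below E2F2 at 2.58 ± 0.0762 CPM per kb. RB1 at 12.8 ± 1.18 CPM per kb was above RBL1 at 9.46 ± 0.712 CPM per kb, and both were well above RBL2 at 3.31 ± 0.379 CPM per kb. The exonic length counts every annotated exon, so a gene expressed mainly from a short transcript is understated on this scale.

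The cyclins and CDKs that act on the pocket proteins were read from the same fit. Of 9 listed genes, 4 fell and 2 rose, 66.7% called beside 40.2% of all genes tested, and their median log2 ratio was -0.051. All 3 D-type cyclins fell. CCND1 went from 1406 ± 60.5 to 961 ± 54.8 CPM, a log2 ratio of -0.55 (SE 0.054, adjusted p = 4.83e-07 in edgeR's test), while CCND3 was at -0.31 and CCND2 at -0.24. CCND2 shares 13.8% of its exonic bases with AC008012.1 on the same strand, and its groups overlapped. CCNE1, the cyclin E gene that is itself an E2F target, held 539, 550 and 522 reads in siControl and 257, 230 and 228 in siZEB1. Its log2 ratio of -1.04 (SE 0.092, adjusted p = 1.37e-07) was the largest of this list. CDK6 rose from 110 ± 9.11 to 164 ± 13.9 CPM, a log2 ratio of 0.57 (SE 0.075, adjusted p = 1.19e-05), and CDK2 rose by 0.42 on the same scale. CDK4, CCNA2 and CCNE2 were not called, with values between -0.051 and 0.079. On the opposite strand, other genes overlap 43.2% of the exonic bases of CDK4, 37.1% of CCNE2, 16.8% of CDK2, 10.3% of CCND1 and 9.08% of CCNA2.

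**Figure D3:**
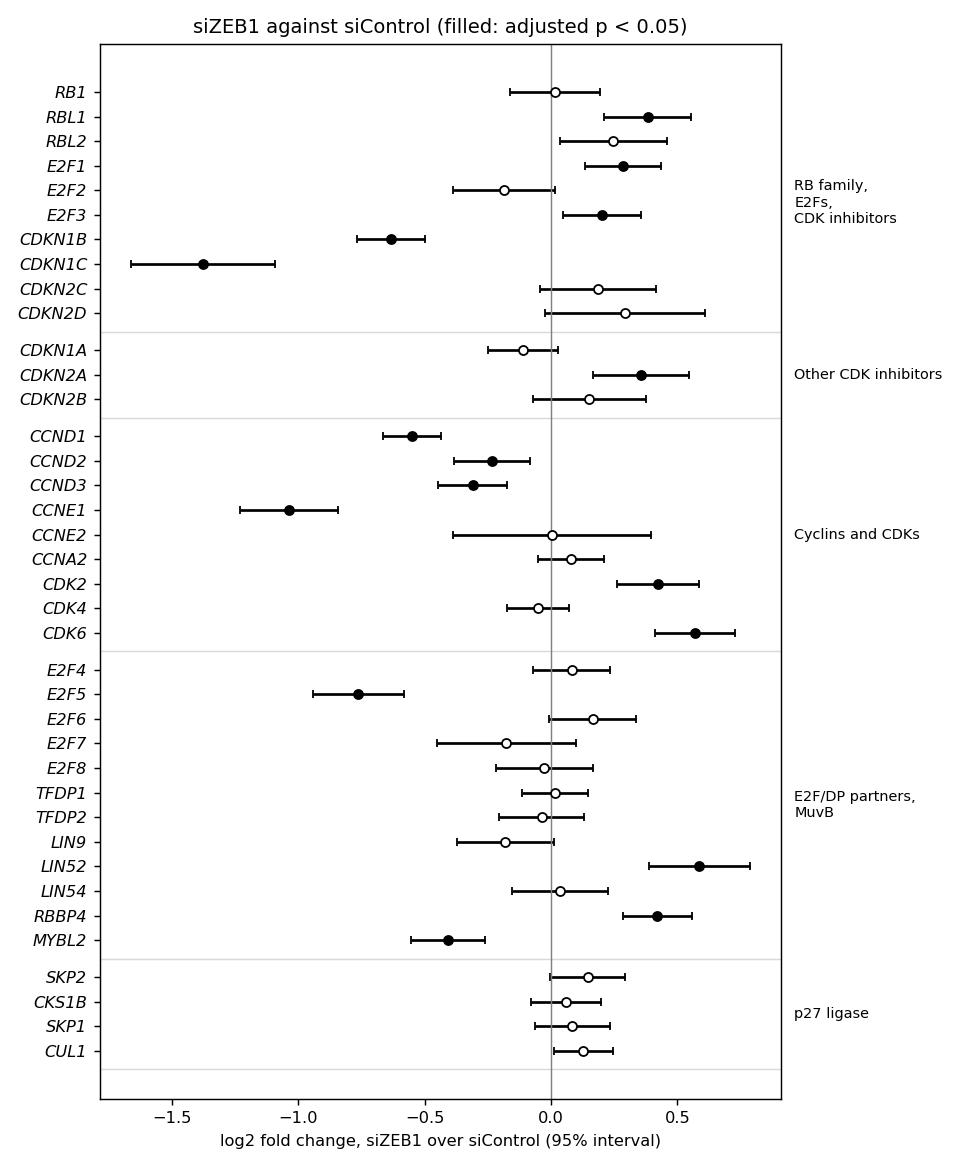
Log2 fold change of siZEB1 over siControl with its 95% interval for the members and for the other genes of the circuit, grouped by role. Filled points passed an adjusted p-value of 0.05. CDKN1C, CCNE1, E2F5 and CDKN1B lie lowest, and LIN52 and CDK6 highest.

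Of the tested partners of the pocket proteins and E2Fs, 33.3% were called, a share near the 40.2% of all genes tested. Of 13 listed E2F, DP and MuvB genes 12 were tested, since LIN37 fell below the filter with 5 to 13 reads in each culture, and 2 rose and 2 fell. E2F5, a repressor E2F bound by p130, fell from 26.7 ± 1.65 to 15.8 ± 0.303 CPM, a log2 ratio of -0.76 (SE 0.085, adjusted p = 2.05e-06 in edgeR's test). Exons on the opposite strand overlap 18.6% of its exonic bases. MYBL2, an E2F target whose product B-MYB joins the MuvB core in S phase, fell by 0.41 on the log2 scale. The MuvB subunit genes LIN52 and RBBP4 rose by 0.59 and 0.42, with SYNC on the opposite strand over 18.01% of the exonic bases of RBBP4. E2F4, the main repressor E2F, was at 164 ± 13.7 and 174 ± 13.1 CPM (0.082, adjusted p = 0.396), and E2F6, E2F7, E2F8, TFDP1, TFDP2, LIN9 and LIN54 had values between -0.18 and 0.16 and were not called. The median of the 12 was -0.0054. Without replicate 3 of both groups, 3 of these genes rose and 4 fell. Over all genes, that fit called 3324 of 15148 as higher and 3599 as lower, more than with all cultures.

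Genes that E2Fs are known to activate in S phase were counted next, without RBL1, E2F1, E2F2 and other genes listed above. Of 35 genes, 10 rose and 4 fell by edgeR's test, and 21 were not called. Thus 40.0% were called, next to 40.2% of all genes tested, and the median log2 ratio was 0.060. By direction, 19.0% of all genes tested were called as higher and 21.2% as lower. UHRF1, which brings DNA methylation to replicated DNA, fell the most, from 373 ± 6.37 to 145 ± 6.96 CPM (-1.36, SE 0.058, adjusted p = 1.31e-11). POLA1, the catalytic subunit of DNA polymerase alpha, and CHAF1B, a subunit of the chromatin assembly factor, fell by 0.57 and 0.53 on the log2 scale. PCNA, the sliding clamp of replication, rose from 406 ± 2.82 to 573 ± 17.1 CPM (0.50, SE 0.051, adjusted p = 7.88e-07). The helicase gene MCM2, with 23.6% of its exonic bases overlapped on the opposite strand (-0.047, adjusted p = 0.535) and the licensing gene CDC6 (0.050, adjusted p = 0.515) were not called. Without replicate 3 of both groups, 13 rose and 5 fell. Over all genes, that fit called 3324 of 15148 as higher and 3599 as lower. With all cultures, 2849 of 14996 were higher and 3186 lower.

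**Figure D4:**
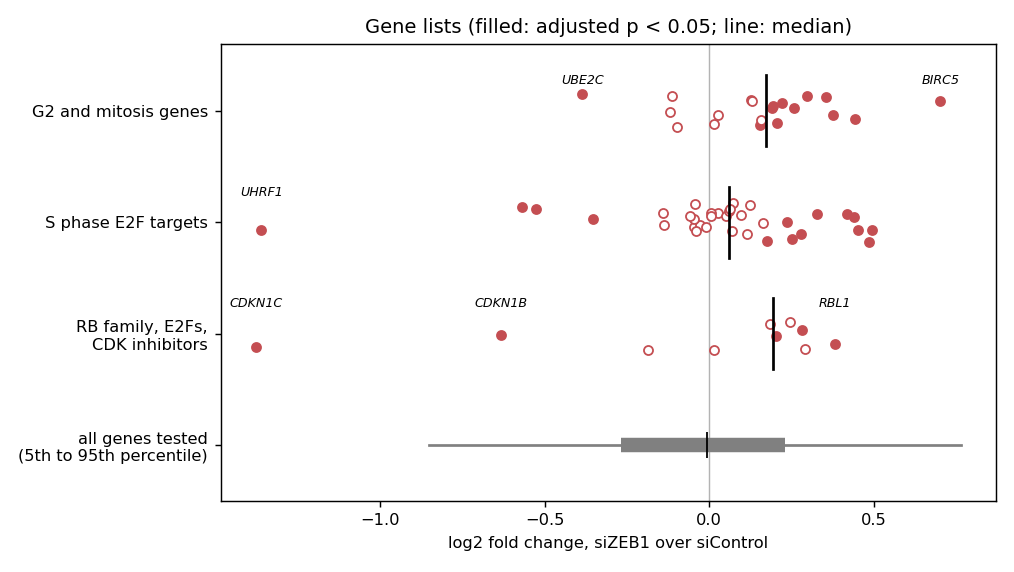
Log2 fold change of siZEB1 over siControl for the members, the S phase E2F targets and the genes of G2 and mitosis, with 1 point per gene, filled where the adjusted p-value was under 0.05, and the median as a vertical line. The grey bar gives the 25th to 75th percentile and the thin line the 5th to 95th percentile of all genes tested, from -0.85 to 0.77. The medians were 0.19, 0.060 and 0.17.

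Genes of G2 and mitosis, which p107 and p130 repress with MuvB in resting cells, were counted for comparison. Of 20 such genes, 11 rose, 1 fell and 8 were not called, a called share of 60.0% beside 40.2% of all genes tested, of which 19.0% were higher, and the median log2 ratio was 0.17. BIRC5, which encodes survivin, rose from 134 ± 6.35 to 217 ± 8.0 CPM (0.70, SE 0.061, adjusted p = 1.04e-07 in edgeR's test), and AURKB and CDK1 rose by 0.44 and 0.38. UBE2C, the ubiquitin-conjugating enzyme of the anaphase-promoting complex, fell by 0.39. The proliferation marker MKI67 was at 754 ± 57.0 and 697 ± 50.1 CPM (-0.11, adjusted p = 0.177), and CCNB1 at 395 ± 5.30 and 370 ± 8.87 CPM (-0.097, adjusted p = 0.149). Without replicate 3 of both groups, 11 rose and 3 fell, while over all genes that fit called 3324 of 15148 as higher and 3599 as lower. With the replicate number as a block 7 rose, where 2289 of all 14996 genes tested were higher.

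**Figure D5:**
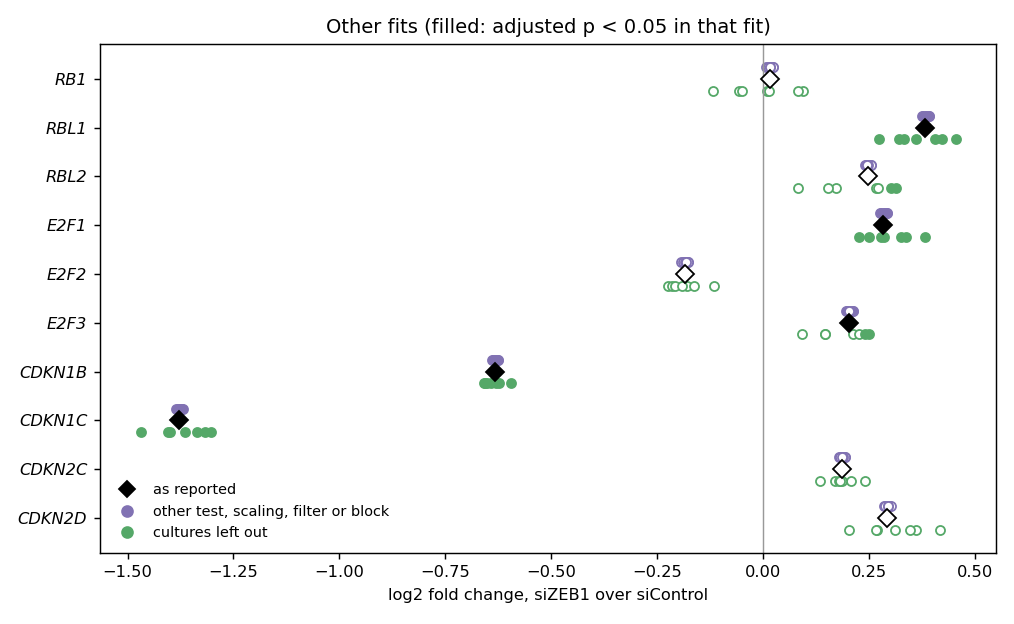
Log2 fold change of each member as reported (diamonds), under another test, scaling, filter or block (upper points of each row) and with cultures left out (lower points), filled where the adjusted p-value was under 0.05 in that fit. CDKN1B, CDKN1C, RBL1 and E2F1 are filled throughout. E2F3 and RBL2 stay above 0 and are filled in some fits only, while RB1 lies on both sides of 0.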

How the data were processed

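RNA-seq was performed by the authors on 3 siControl and 3 siZEB1 cultures, prepared as biological replicates. The deposited values are raw counts of reads per Ensembl gene, whole numbers without normalization, and the submitters' processing notes name Trimmomatic, HISAT2, SAMtools, featureCounts and hg38. The annotation and the strand setting of the counting are not given in the sources used here. Genes were kept by edgeR's filterByExpr, scaled by TMM and compared between the groups over all 6 cultures by edgeR's quasi-likelihood test, which is two-sided and had no covariate (R 4.3.3, edgeR 4.0.16). The 14996 genes tested were adjusted together by Benjamini-Hochberg. The test was checked on simulated counts, drawn independently for each culture and with larger changes than those of most members. That check therefore does not cover small changes or the opposite deviations of the cultures numbered 3. Intervals of fold changes are 95% and use the moderated degrees of freedom. Depth was 19040636 to 22357633 counts per culture. Replicates differed by 2.18 to 8.58 times counting noise, so none is a copy of another. Coordinates, exonic lengths and overlaps are from GENCODE 29 on GRCh38, matched for 31059 of 32029 identifiers, and promoters from RefSeq on GRCh38.p14. The members and lists were chosen with earlier results of these data known. Named genes were the 10 members, ZEB1, the genes of the circuit whatever their values, and, of the S phase and mitotic lists, the 4 called with the largest change plus MCM2, PCNA, CDC6, MKI67 and CCNB1. The epithelial and other marker genes named are from lists of cell type markers and were chosen after their values were seen. The cultures come from 1 line, so p-values measure the spread between cultures of that line. Alternatives were DESeq2 1.42.0, other scalings and filters, a block for the replicate number, fits without 1 culture, and thresholds on the fold change.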

Additional observations from a re-analysis of the deposited data

How the results depend on the processing

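CDKN1B, CDKN1C, RBL1, E2F1 and ZEB1 kept their direction and their call in all 13 other fits. Among members, 2 to 4 rose and 2 fell with each culture left out in turn. With a fold change above 1.5, 0 members rose and 2 fell, at an unadjusted p-value under 0.05 and under 0.001 alike, while over all genes 1081 and 678 were higher and 1402 and 1004 lower. RB1, called in none of these fits, ranged from -0.058 to 0.094 with 1 culture left out and changed sign without siControl replicate 3 (-0.058), without siZEB1 replicate 3 (-0.050) and without both (-0.12). The leave-out fits moved the genes called as higher in the p27 ligase list between 0 and 2 (without siControl replicate 1, 1, and without replicate 3 of both groups, 2), those called as lower among the E2F partners between 2 and 4, and those called as lower among the mitotic genes between 1 and 3 (without siControl replicate 3, 2). The cause of these shifts was not tested. Over all genes, the fit without replicate 3 of both groups called 3324 of 15148 as higher and 3599 as lower. With all cultures, 2849 of 14996 were higher and 3186 lower. The replicate numbers do not pair the cultures: same-numbered cultures had correlations of deviations of -0.333, -0.339 and -0.659, and no culture was most like the other group's culture of its own number. With the replicate number as a block, 2289 genes were higher and 2679 lower, 7 mitotic genes were higher, and E2F3 (0.20, adjusted p = 0.110) was not called. The block changed no other member's call. The cyclin and CDK list had 3 genes called as lower, in place of 4, with the block and without siZEB1 replicate 1. Depth limits CDKN1C, CDKN2C and CDKN2D, which have 61 to 205 reads per culture.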

Other observations

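The 7-mer GAACACA was read in the longest annotated 3′UTR of each coding gene in GENCODE 29, because genes that hold it were lower in these cultures. The median log2 fold change of siZEB1 over siControl was -0.21 for the 1559 tested genes that held it, 12.7% of the 12321 with a 3′UTR, and 0.0082 for the others. The 7-mer was chosen on these cultures, so this difference is a description. A longer 3′UTR has more places for a 7-mer, and the part of 3′UTR length in this difference was not tested. Of the 10 members, 0 held the 7-mer, CDKN1B and CDKN1C included, and neither did any of the cyclin and CDK genes listed above. Among the E2F partners only E2F8, at a log2 fold change of -0.026, held 1 copy.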
